A study of Mus musculus with 6 samples.

Results

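ETn and MusD elements were followed through 5 rows of the transposon table, whose names start with ETn, MMETn or RLTRETN, out of 302 families in all. They are the internal regions ETnERV-int, ETnERV2-int, ETnERV3-int and MMETn-int, and the long terminal repeat (LTR) row RLTRETN_Mm. The members were taken by the start of their name, with earlier results of these data known, and no row carries the name MusD. RNA was sequenced from J1 mouse ES cells, a wild-type male line grown without feeders on gelatin. D0 cells were in fetal bovine serum with LIF. D6 and D13 cells had been moved for that number of days to serum-free medium with LIF, an inhibitor of Gsk3, an inhibitor of MEK and vitamin C, a medium called 2i+vitC in which DNA methylation is lost. Each day had 2 biological replicates, 6 samples in all, all from a single line. Libraries were stranded and made from polyadenylated RNA. Since each read was divided over all the sites it matched, a value is that of a whole family, and single copies, with their positions, were not analysed here.

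ETn (early transposons) are LTR retrotransposons of the mouse that resemble retroviruses but do not code for the proteins they need to move. MusD elements are their close relatives with coding sequence and can supply those proteins to ETn. Both are transcribed in the early embryo and in ES cells, new insertions of both have caused mutations in mice, and in ES cells they are targets of the corepressor KAP1 (Trim28) and the H3K9 methyltransferase Setdb1. The question put to these rows was how their RNA level moved as the cells lost DNA methylation, at the point of low methylation (D6) and a week later (D13).

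Of the 5 families, ETnERV3-int changed. It ranked in the middle of the families by reads in serum, was among the most abundant at D6, and had come down part of the way by D13. MMETn-int and ETnERV-int, which gave most of the reads of the group on every day, did not pass the test between any 2 days, and neither did ETnERV2-int or RLTRETN_Mm.

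In levels, given as log2 CPM, the log of the reads of a family scaled to the same library size, ETnERV3-int stood at 2.74 and 1.34 in the D0 replicates, 9.31 and 7.67 on D6 and 4.94 and 5.18 on D13. No value of one day overlapped with those of another, and both D13 samples lay between the D0 and the D6 samples. The weighted reads behind them were 528 and 220 in serum, 50066 and 17302 on D6 and 2191 and 2723 on D13, so that no value of this family was at the limit of detection. The family ranked number 119 and 168 of 302 by reads in serum, 6 and 17 on D6 and 46 and 43 on D13.

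ETnERV3-int rose from D0 to D6 by 6.45 log2 units (SE 0.56, limma adjusted p = 0.00012), which is 87.4-fold, with a 95% interval of 36.0 to 212-fold. From D6 to D13 it fell by 3.43 on the log2 scale (SE 0.56, limma adjusted p = 0.023), which is 10.8-fold, with an interval of 4.44 to 26.2-fold. D13 was still above D0, by 3.02 log2 units (SE 0.56, limma adjusted p = 0.0032), an 8.11-fold difference with an interval of 3.34 to 19.7-fold. Among the 302 families, its fitted change from D0 to D6 was the fourth highest, and its change from D6 to D13 was the lowest. Without D13 replicate 1, which left D13 with a single sample, the size of the fall hardly moved, at a log2 fold change of -3.31, but it was no longer called (limma adjusted p = 0.145). The size of the D0 to D6 rise lay between 49.4-fold without D6 replicate 1 and 154-fold without D6 replicate 2, that of the D6 to D13 fall between 6.10-fold without D6 replicate 1 and 19.0-fold without D6 replicate 2, and that of the D0 to D13 difference between 4.98-fold without D0 replicate 2 and 13.2-fold without D0 replicate 1.

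**Figure D1:**
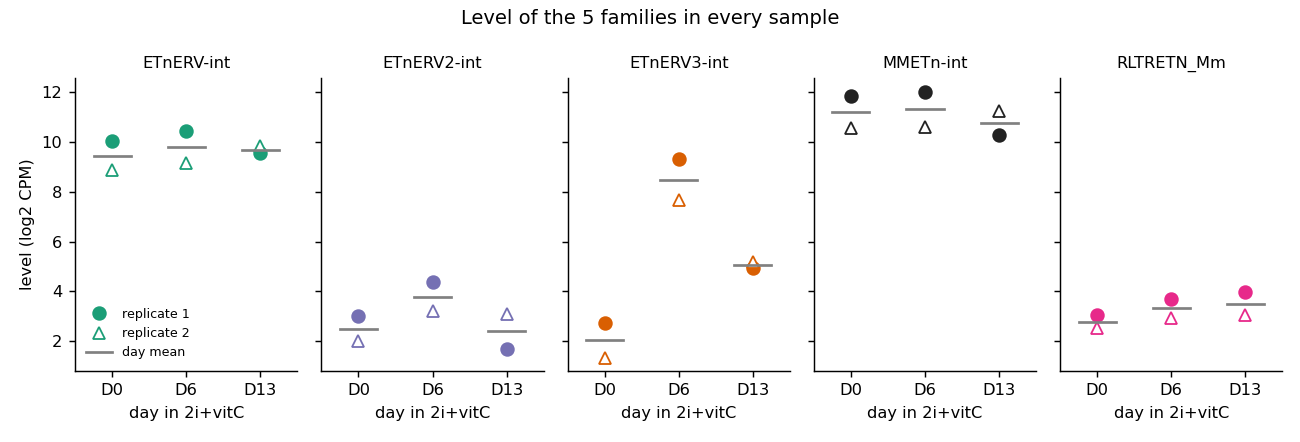
Level in log2 CPM (vertical axis) of each of the 5 families on D0, D6 and D13 (horizontal axis). Filled circles are replicate 1, open triangles replicate 2 and grey lines the mean of a day. ETnERV3-int moves from a mean of 2.04 to 8.49 and back to 5.06, while the days of MMETn-int, ETnERV-int and RLTRETN_Mm overlap.

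In the fit of all 6 samples, 1 of the 5 families was called up from D0 to D6, where 12.9% of the 302 families were called up. From D6 to D13, 1 of 5 was called down, beside 3.97% of all families, and from D0 to D13, 1 of 5 was called up, beside 9.27%. It was ETnERV3-int each time. A call needed more than a 2-fold change and an adjusted p under 0.05. The median log2 fold change of the 5 families was 0.54 up to D6, -0.56 after D6 and 0.25 between the end-points, beside 0.18, -0.35 and -0.10 over all families. Samples of both days did not overlap, with D6 above D0, for 2 of the 5, ETnERV2-int and ETnERV3-int, and for 24.5% of all families. The same 2 had both D13 samples below both D6 samples, as did 21.9% of all families, and ETnERV3-int alone of the 5 had both D13 samples above both D0 samples, as did 19.9%. None of these shares sets the 5 families apart as a group.

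MMETn-int holds the internal sequence of ETn. Its log2 CPM was 11.86 and 10.57 in serum, 12.02 and 10.62 on D6 and 10.29 and 11.23 on D13, and the days overlapped throughout. It took 23.9% and 13.3% of all family reads in serum, 17.2% and 9.63% on D6 and 12.3% and 20.3% on D13. It gave the most reads of all 302 families in 4 of the 6 samples and was at rank 3 in the second replicates of D0 and D6. The fitted log2 difference was 0.10 for D6 against D0 (95% interval -1.18 to 1.39, limma adjusted p = 0.92), -0.56 for D13 against D6 (-1.85 to 0.73, limma adjusted p = 0.58) and -0.46 for D13 against D0 (-1.75 to 0.83, limma adjusted p = 0.54). These intervals, from a fit that did not pair the replicates, leave room for changes of more than 2-fold either way from D0 to D6. In that fit even a change past 2-fold may not have been detectable with the spread of these replicates.

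ETnERV-int was the other abundant row, with 468 to 1381 CPM. Its log2 CPM was 10.02 and 8.87 in serum, 10.43 and 9.17 on D6 and 9.57 and 9.82 on D13, with overlap between all days. Its share of the family reads was 6.65% and 4.10% in serum, 5.74% and 3.52% on D6 and 7.49% and 7.62% on D13. D6 differed from D0 by 0.36 log2 units (95% interval -0.70 to 1.42, limma adjusted p = 0.64), D13 from D6 by -0.11 (-1.17 to 0.95, limma adjusted p = 0.91) and D13 from D0 by 0.25 (-0.81 to 1.31, limma adjusted p = 0.69).

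ETnERV2-int was low beside MMETn-int and ETnERV-int in every sample, though at rank 80 to 139 of the 302 families by reads. Its log2 CPM was 3.00 and 2.00 in serum, 4.37 and 3.19 on D6 and 1.70 and 3.10 on D13, or 232 to 1631 weighted reads. D6 was highest in both replicates, and D0 and D13 overlapped. D6 differed from D0 by 1.28 log2 units (95% interval -0.02 to 2.58, limma adjusted p = 0.15) and D13 from D6 by -1.38 (-2.68 to -0.08, limma adjusted p = 0.18), neither past the threshold. Between D0 and D13 the difference was -0.10 (-1.40 to 1.20, limma adjusted p = 0.90), well within the replicate SD of 0.71 in serum (n = 2). The unadjusted p of the D6 to D13 step was 0.040, and ETnERV2-int was the only family beside ETnERV3-int among the 5 with an unadjusted p under 0.05 between any 2 days.

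RLTRETN_Mm, the LTR row of the group, was at a log2 CPM of 3.06 and 2.51 in serum, 3.71 and 2.94 on D6 and 3.98 and 3.03 on D13. Its 495 to 1127 weighted reads per sample were 0.0470% to 0.155% of the family reads. The days overlapped, and the means of the days lay closer together than the D13 replicates. D6 differed from D0 by 0.54 log2 units (95% interval -0.40 to 1.49, limma adjusted p = 0.40), D13 from D6 by 0.18 (-0.76 to 1.12, limma adjusted p = 0.82) and D13 from D0 by 0.72 (-0.22 to 1.67, limma adjusted p = 0.19). The authors joined LTR and internal fragments of the same copy in their annotation, so that the LTRs of copies with an internal part need not be counted in this row.

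**Figure D2:**
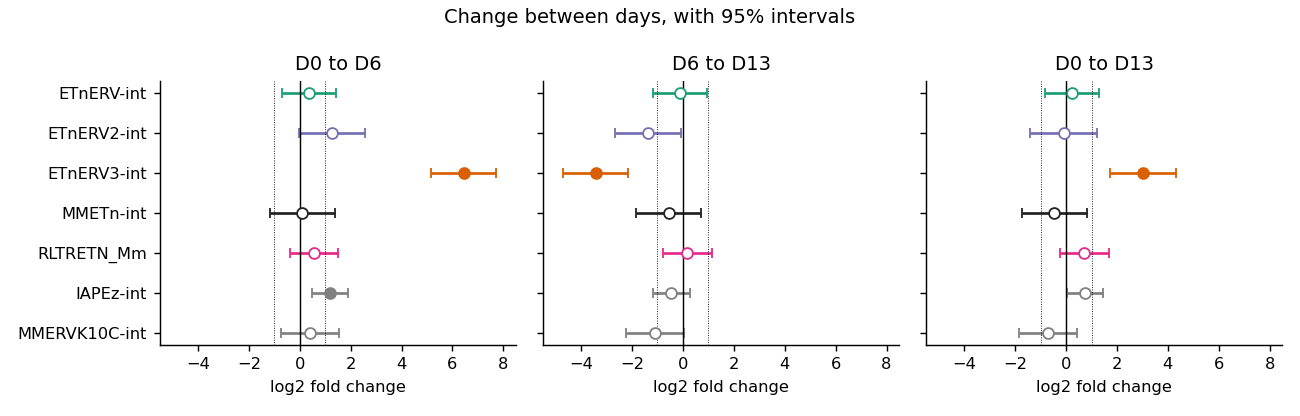
Log2 fold change (horizontal axis) with its 95% interval from the limma fit for the 5 families and, in grey, IAPEz-int and MMERVK10C-int, for each pair of days (n = 2 per day). Filled points passed the call, and dotted lines mark a 2-fold change. ETnERV3-int stands at 6.45, -3.43 and 3.02.

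**Figure D3:**
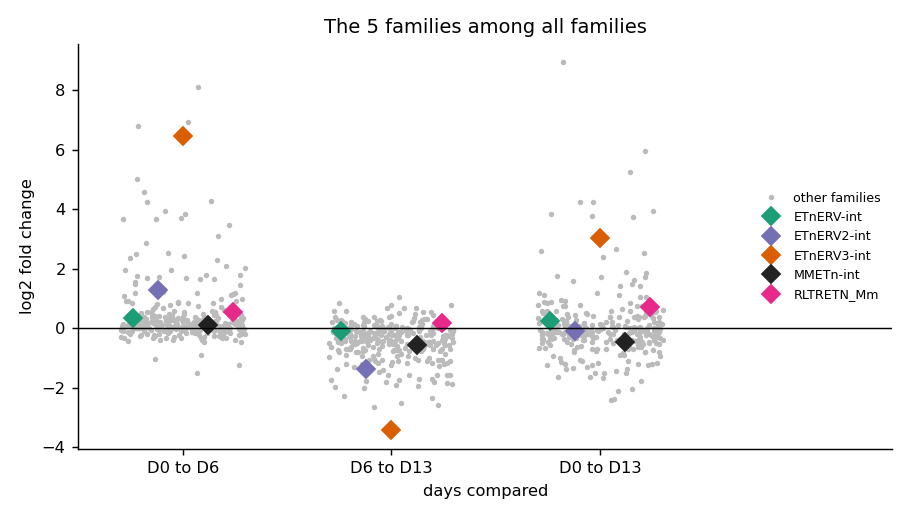
Log2 fold change (vertical axis) of all 302 families for each pair of days (horizontal axis), with the 5 families as coloured diamonds and the others as grey points, spread sideways for legibility. ETnERV3-int is the lowest point from D6 to D13, at -3.43, and the other 4 lie between -1.38 and 1.28 in all comparisons.

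Whether ETnERV3-int moved differently from its relatives was tested on log2 ratios within each sample, which leave out what a library adds to both families alike. Its log2 ratio to ETnERV-int was -7.27 and -7.53 in serum, -1.12 and -1.50 on D6 and -4.63 and -4.63 on D13. The ratio to MMETn-int was -9.12 and -9.23 in serum, -2.70 and -2.95 on D6 and -5.35 and -6.05 on D13. On D0 and D6 the replicates of these ratios lay closer together than those of the level of ETnERV3-int, and on D13 this held for the ratio to ETnERV-int but not for that to MMETn-int. ETnERV3-int was level with ETnERV2-int in serum, with a log2 ratio of -0.26 and -0.67, and above it at D6, with 4.94 and 4.48, and at D13, with 3.24 and 2.08.

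From D0 to D6 the change of ETnERV3-int differed from that of all 4 other members. The difference in log2 fold change was 6.09 against ETnERV-int (limma adjusted p = 2.4e-08), 5.17 against ETnERV2-int (limma adjusted p = 0.00013), 6.34 against MMETn-int (limma adjusted p = 1.4e-06) and 5.91 against RLTRETN_Mm (limma adjusted p = 3.9e-07). Each p is the larger of the 2 obtained with either family as the reference. By the p with ETnERV3-int as the reference alone, which is the one that can be read over all rows, 4 of 4 members and 98.4% of all other genes and families differed from it. The difference from ETnERV2-int was no longer past the threshold without D0 replicate 2 (limma adjusted p = 0.063) or D6 replicate 1 (limma adjusted p = 0.057). From D6 to D13, 1 of the 4 passed, RLTRETN_Mm, with a difference of -3.61 (limma adjusted p = 0.0043). With ETnERV3-int as the reference alone, 3 of 4 members and 94.3% of all rows passed. From D0 to D13, 2 of 4 passed, ETnERV-int with 2.77 (limma adjusted p = 0.035) and MMETn-int with 3.48 (limma adjusted p = 0.033), by the larger p. With ETnERV3-int as the only reference, it was 3 of 4 members and 76.0% of all rows. Most rows of the table thus differed from ETnERV3-int at each step, and these counts do not set its relatives apart from other rows. The later calls by the larger p were lost in turn when a sample of either day compared was left out.

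This test gives a p that depends on which family is the reference, since all rows then share the error of that family. The shared error also makes the spread of the rows alike, so a p can be smaller than 6 samples warrant. In a fit chosen after seeing the data, where each ratio was a row of the whole table, ETnERV3-int differed from all 4 members between all days. No share of all rows was worked out for that fit, so this count has no background beside it. In that fit the limma adjusted p from D0 to D6 was 7.7e-06 against ETnERV-int, 0.00012 against ETnERV2-int, 1.1e-05 against MMETn-int and 0.00012 against RLTRETN_Mm. There the difference from D6 to D13 was -3.32 against ETnERV-int (95% interval -3.99 to -2.65, limma adjusted p = 0.0056), -2.05 against ETnERV2-int (-3.10 to -1.01, limma adjusted p = 0.045) and -2.87 against MMETn-int (-3.62 to -2.12, limma adjusted p = 0.012). From D0 to D13 it was 3.12 against ETnERV2-int (2.08 to 4.16, limma adjusted p = 0.00096) and 2.30 against RLTRETN_Mm (1.10 to 3.49, limma adjusted p = 0.0082).

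Of the 6 pairs without ETnERV3-int, 0 passed the limma test between any 2 days with the larger of the p-values, and 1 passed in the fit with added rows. This was ETnERV2-int against MMETn-int from D0 to D6. Its log2 ratio was -8.86 and -8.56 in serum, -7.64 and -7.43 on D6 and -8.58 and -8.12 on D13, with no overlap between D6 and either other day. The change to D6 was larger by 1.17 log2 units (95% interval 0.47 to 1.87, limma adjusted p = 0.024 with added rows and 1 with the larger of the reference-based values). MMETn-int and ETnERV-int held a log2 ratio of 1.85 and 1.69 in serum, 1.58 and 1.45 on D6 and 0.72 and 1.41 on D13, and the difference from D0 to D13 was -0.71 (-1.54 to 0.13, limma adjusted p = 0.15 with added rows). In all, 10 pairs among the members were compared for each pair of days.

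The 5 families together took 30.7% and 17.5% of family reads in serum, 25.7% and 14.5% on D6 and 20.3% and 28.4% on D13. The lowest and the highest share of each day lay further apart than the means of the days, which were 24.1%, 20.1% and 24.3%. ETnERV3-int was 0.0430% and 0.0220% of the family reads in serum, 2.64% and 1.24% on D6 and 0.302% and 0.307% on D13. On the linear scale its mean of 4.61 CPM at D0 became 419 CPM at D6 and 33.5 CPM at D13, while the mean of MMETn-int was 2619, 2857 and 1823 CPM. Families differ in number of copies and in length, so these shares are of reads and not of transcripts per copy.

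**Figure D4:**
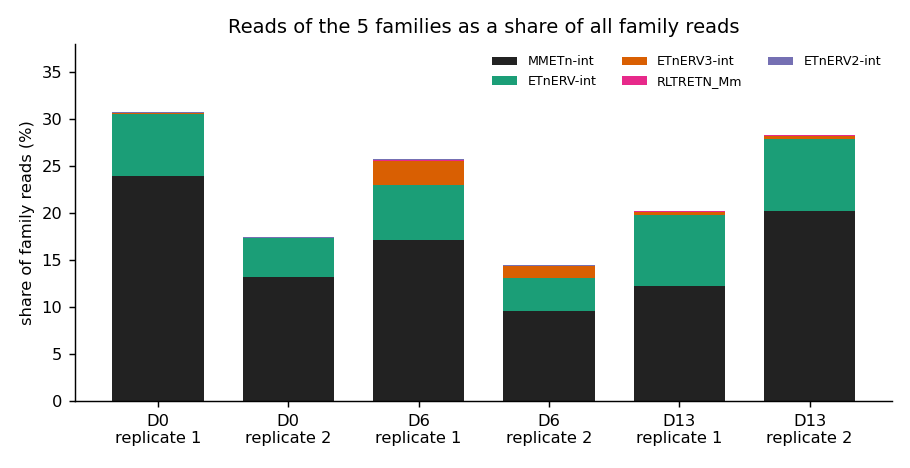
Share of all reads on 302 families (vertical axis, percent) that fell on each of the 5 families in each of the 6 samples (horizontal axis). Bars are stacked and start at 0. MMETn-int and ETnERV-int fill nearly all of each bar, and ETnERV3-int is visible mainly at D6, with 2.64% and 1.24%.

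The spread between replicates bears on all the values above. At D0, replicate 1 was above replicate 2 in log2 CPM by 1.30 for MMETn-int, 1.15 for ETnERV-int, 1.00 for ETnERV2-int, 1.41 for ETnERV3-int and 0.55 for RLTRETN_Mm. The D6 replicates differed in the same direction, by 1.40, 1.26, 1.18, 1.64 and 0.77, whereas at D13 the 4 internal rows were lower in replicate 1, by -0.94 for MMETn-int, -0.24 for ETnERV-int, -1.40 for ETnERV2-int and -0.24 for ETnERV3-int. RLTRETN_Mm went against them at D13, with 0.95 more in replicate 1. Most families leaned the same way as the internal rows: the median difference over the 302 was 0.42 in serum, 0.77 on D6 and -0.78 on D13, and 258, 291 and 66 of them were higher in replicate 1. At D0, 14 families had a larger difference than MMETn-int and 9 a larger one than ETnERV3-int, and at D6 these numbers were 21 and 7. The share of counted reads that fell on families was 1.52% and 1.18% in serum, 2.46% and 1.65% on D6 and 0.964% and 1.20% on D13. What makes the replicates differ was not tested.

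**Figure D5:**
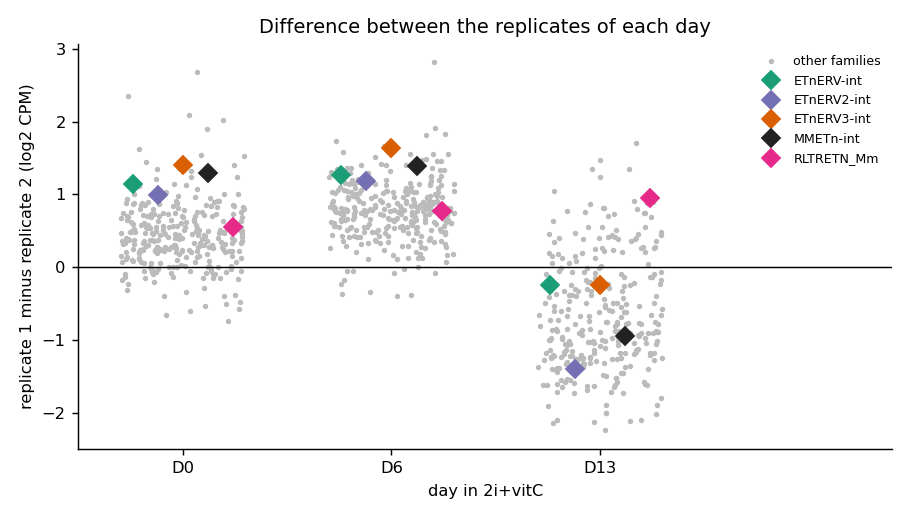
Replicate 1 minus replicate 2 in log2 CPM (vertical axis) for all 302 families on each day (horizontal axis), with the 5 families as coloured diamonds. The internal rows lie at 1.00 to 1.41 at D0 and at 1.18 to 1.64 at D6, above the medians of 0.42 and 0.77, and RLTRETN_Mm is at 0.95 at D13, where the median is -0.78.

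IAPEz-int and MMERVK10C-int, ERVs of the same class, were taken for comparison. IAPEz-int, the intracisternal A-particle, was at a log2 CPM of 7.26 and 6.98 in serum, 8.76 and 7.84 on D6 and 7.66 and 8.05 on D13, and rose from D0 to D6 by 1.19 (SE 0.32, limma adjusted p = 0.026). MMERVK10C-int was at 5.24 and 3.80, 5.43 and 4.38, and 3.55 and 4.09, and passed between no 2 days. In the ratio tests that follow, the comparison family was the only reference, so the p is not the larger of 2. All rows again shared the error of the reference, so this p can be smaller than 6 samples warrant. The share of all rows that differed from these references is not given here. Against IAPEz-int, the change of ETnERV3-int differed by 5.26 up to D6 (limma adjusted p = 1.1e-15, and 8.1e-05 with added rows). After D6 it differed by -2.98 (limma adjusted p = 0.00081, and 0.017 with added rows). Between D0 and D13 it differed by 2.28 (limma adjusted p = 0.0015, and 0.0032 with added rows). Up to D6 it differed from MMERVK10C-int by 6.06 (limma adjusted p = 1.1e-07, and 1.7e-05 with added rows). Between D0 and D13 it differed from MMERVK10C-int by 3.72 (limma adjusted p = 0.0033, and 0.00010 with added rows). The difference of -2.34 after D6 did not pass (limma adjusted p = 0.53, and 0.017 with added rows). MMETn-int differed from IAPEz-int by -1.08 up to D6 (limma adjusted p = 0.14) and by -1.19 between D0 and D13 (limma adjusted p = 0.15, and 0.049 with added rows), so that the difference between a called IAPEz-int and an uncalled MMETn-int was not itself past the threshold in the first of these comparisons. Between D0 and D13, ETnERV-int differed from MMERVK10C-int by 0.95 (limma adjusted p = 0.67, and 0.030 with added rows). ETnERV2-int and RLTRETN_Mm passed against neither comparison family in either fit.

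The families with the course most like that of ETnERV3-int over the 6 samples, by Pearson's r of log2 CPM among 87 families whose days spanned over 1 log2 unit, were ERVB2_1A-I_MM (r = 0.993), ORR1A1-int (r = 0.979) and RLTR13B1 (r = 0.974). ERVB2_1A-I_MM was at a log2 CPM of -1.47 and -1.79 in serum, 2.75 and 1.41 on D6 and -0.06 and 0.27 on D13. Of 4711 genes, the nearest were Frmd4b (r = 0.990), Coro6 (r = 0.989) and Pex3 (r = 0.988). Frmd4b was at a log2 CPM of 4.57 and 4.15 in serum, 5.81 and 5.45 on D6 and 4.90 and 4.80 on D13, and Pex3 is a peroxisome assembly factor. The 6 points share their libraries and the rows were picked for likeness, so these r values are a description. Over the same samples, ETnERV3-int had an r of 0.73 with ETnERV2-int, 0.53 with RLTRETN_Mm, 0.49 with ETnERV-int and 0.28 with MMETn-int.

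The genes of the machinery known to repress these elements were read from the same libraries, with a call at more than a 4-fold change. Of the 19 genes of the KAP1 and H3K9me3 list, 0 were called between any 2 days by limma, with 6 at an unadjusted p under 0.05 up to D6, 4 after D6 and 7 between the end-points. Without the 4-fold minimum, an adjusted p under 0.05 was reached by 3 genes to D6, all lower (Cbx1, Suv39h1 and Ehmt1), by 1 after D6, also lower (Zfp809), and by 5 between the end-points, all lower (Cbx1, Suv39h2, Ehmt1, Smarcad1 and Chaf1a), named after their values were seen. Among them Suv39h1, an H3K9 methyltransferase, differed by -1.32 to D6 (limma adjusted p = 0.0058), Zfp809, a zinc finger protein that recruits KAP1 to retroviral sequence, by -1.58 after D6 (limma adjusted p = 0.037) and Ehmt1, another H3K9 methyltransferase, by -1.16 from D0 to D13 (limma adjusted p = 0.0040). Over all genes, by the 4-fold call in either direction, 9.81% were called up to D6, 1.09% after D6 and 13.5% between the end-points. Shares of all genes past an unadjusted or an adjusted p alone were not worked out. The counts of that kind, for this list and those that follow, therefore have no background beside them. Trim28, the corepressor, was at a log2 CPM of 10.87 and 10.44 in serum, 10.29 and 10.58 on D6 and 10.35 and 9.92 on D13. Setdb1, which places H3K9me3, was at 7.46 and 7.46, 7.86 and 7.99, and 7.13 and 7.58.

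Of 8 matched genes for DNA methylation (Tdg was not matched), 3 were called down from D0 to D6, 0 changed past the call from D6 to D13 (5 at an unadjusted limma p under 0.05) and 3 were called down from D0 to D13. The 3 are the de novo enzymes and their cofactor. Over all genes, in either direction, the shares past the call were 9.81%, 1.09% and 13.5%. Dnmt3a (chr12:3806007-3914443, GRCm38) fell by 2.41 on the log2 scale to D6 (limma adjusted p = 0.00026) and Dnmt3b (chr2:153649450-153687730) fell by 3.37 (limma adjusted p = 0.00016). Dnmt3l (chr10:78041947-78063622), which helps both enzymes, fell by 4.87 (limma adjusted p = 8.3e-05). It was at a log2 CPM of 8.20 and 7.97 in serum, 2.61 and 3.81 on D6 and 2.04 and 1.48 on D13. The maintenance enzyme Dnmt1 was at 8.54 and 8.86 in serum, 8.83 and 8.94 on D6 and 8.97 and 9.25 on D13, and its partner Uhrf1 at 8.66 and 8.52, 9.67 and 9.73, and 10.25 and 10.22, short of a 4-fold change. Without the 4-fold minimum, 7 of the 8 had a limma adjusted p under 0.05 from D0 to D13. Among them Uhrf1 differed by 1.65 (limma adjusted p = 0.00054), Tet1 by -1.41 (limma adjusted p = 0.012), Tet2 by -1.09 (limma adjusted p = 0.039) and Tet3 by -1.92 (limma adjusted p = 0.0024).

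Of 8 Polycomb genes, which place the repressive mark H3K27me3 or act beside it, 0 were called by limma from D0 to D6 (2 at an unadjusted p under 0.05) and from D6 to D13 (3), and 1 was called down from D0 to D13. This was Jarid2 (chr13:44729474-44921643), a cofactor of the complex, which fell by 2.43 on the log2 scale (limma adjusted p = 7.3e-05). It had fallen by 1.69 already at D6 (limma adjusted p = 0.00064), short of a 4-fold change. Without the 4-fold minimum, no other gene of the list had a limma adjusted p under 0.05 between any 2 days. Over all genes, in either direction, 9.81%, 1.09% and 13.5% were called, so 1 of 8 lay near the last share. Ezh2, the enzyme of the complex, was at a log2 CPM of 7.62 and 7.64 in serum, 7.99 and 7.97 on D6 and 8.02 and 7.91 on D13, and its subunit Eed at 7.89 and 7.40, 7.86 and 7.87, and 7.73 and 7.52. The levels of these genes stand beside those of the families, and a part of any of them in the families' levels was not tested.

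All 8 markers of ES cells were found, with Pou5f1 between 9.46 and 10.18 log2 CPM in all samples, but the list did not stay level. Of the 8, Nanog (log2 fold change 2.00, limma adjusted p = 0.00029) and Tfcp2l1 (3.21, limma adjusted p = 0.00051) were called up to D6 and Utf1 was called down (-2.10, limma adjusted p = 0.00097), genes named here after their values were seen. Of the markers of other cells, 3 of 6 for primitive endoderm, 1 of 4 for mesoderm, 3 of 4 for neural ectoderm, 2 of 4 for trophoblast and 4 of 5 for fibroblasts were matched to a row. Summed levels at D0, D6 and D13 were 17.8 and 20.4, 3.48 and 5.42, and 4.41 and 4.80 CPM for primitive endoderm, where Dab2 alone was called down to D6 (log2 fold change -4.32, limma adjusted p = 0.00015) and Sox17 and Pdgfra had log2 fold changes of 0.16 and 0.52. They were 5.41 and 3.72, 2.97 and 5.32, and 3.35 and 3.27 CPM for mesoderm. Sums were 209 and 156, 103 and 124, and 97.8 and 98.4 CPM for neural ectoderm, and 37.5 and 70.0, 91.8 and 94.1, and 79.7 and 74.9 CPM for trophoblast. The genes of these lists did not move together. From D0 to D13, Sox1 differed by 1.86 (limma adjusted p = 0.0023), Tubb3 by -1.77 (limma adjusted p = 0.0024) and Nes by -0.67 (limma adjusted p = 0.079). From D6 to D13, Krt7 was called up (2.20, limma adjusted p = 0.024), while Tfap2c differed by -0.38 (limma adjusted p = 0.51). The fibroblast list summed to 137 and 36.7, 241 and 352, and 168 and 170 CPM, nearly all of it Vim at D6 and D13. Vim was called up to D6 (log2 fold change 2.42, limma adjusted p = 0.011). Col1a1, Col1a2 and Thy1 had log2 fold changes of -1.58, -2.13 and -1.89 to D6 and of -0.41, -1.73 and 1.29 after D6. The collagen Col1a2 was at a log2 CPM of 2.21 and 1.62 in serum, 0.21 and -0.64 on D6 and -0.75 and -3.14 on D13. The part of these cells in the level of ETnERV3-int was not tested. More cells with the RNA and more RNA in each cell cannot be told apart in these bulk libraries.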

How the data were processed

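For 6 RNA-seq libraries, the authors mapped reads to mm10, genes with TopHat2 2.0.6 and HTSeq 0.6.1 counting, transposons with Bowtie 1.0.0 (rRNA and exonic reads removed, perfect matches, each read weighted by its number of sites), and deposited log2 CPM after TMM and voom. Family values therefore count reads shared between copies and related families. The 12626 genes and 302 families were fitted together with limma 3.58.1 (R 4.3.3), a mean per day, on all 6 samples, with a mean-variance trend, without a block, and Benjamini-Hochberg adjustment over 12928 rows. Families were called past a 2-fold and genes past a 4-fold change, at an adjusted p under 0.05. The fit was run on simulated counts with planted changes of 3 log2 units, of which it recovered 100%, with 0 unchanged rows called. Rows were drawn independently there, without a shift shared by the families of a library. The simulation therefore does not measure how the calls fare under the replicate spread seen here. Differences between families were fitted on log2 ratios of every row to a reference family. That shares the reference's error among rows, so for pairs of members the larger adjusted p of the 2 orientations is given. Against IAPEz-int and MMERVK10C-int, that family was the only reference. A fit with ratios as added rows was chosen after seeing the data.

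Gene values lay on whole reads plus 0.5 (100% within 0.05), which gave 73230745 to 83688345 reads on genes and 725940 to 1896202 weighted reads on families per sample. A value of 3 reads was 0.0344 to 0.042 CPM. Whole reads cover counting error only. With 2 replicates per day, SDs rest on 2 values and exact tests of single families cannot reach the threshold. In the deposited tables every capital G is missing from gene names and 9 families have shortened names. Rows so affected entered the fit without being named. Gene positions are from GENCODE M21 (GRCm38).

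Members and gene lists were chosen with earlier results of these data known. Named were all 5 families, IAPEz-int, MMERVK10C-int, genes of the silencing lists past the call with 9 named regardless (Trim28, Setdb1, Dnmt1, Uhrf1, Dnmt3a, Dnmt3b, Dnmt3l, Ezh2 and Eed), and the 3 families and 3 genes with the highest Pearson's r to a called member. Eligible rows had day means over 1 log2 unit apart and 10 or more reads in both samples of the highest day. Alternatives were a replicate block, only the days compared, each sample left out, a filter of 10 reads in 2 samples, log2(CPM + 1), no trend, voom weights, centring on the median gene, adjustment over families only and an adjusted p under 0.01. No sequence of these elements was used here.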

Additional observations from a re-analysis of the deposited data

How the results depend on the processing

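The direction and the call of ETnERV3-int held from D0 to D6 and from D0 to D13 under all alternatives run. Its fall from D6 to D13 was not called at an adjusted p under 0.01 (limma adjusted p = 0.023), leaving 0 families down, and leaving out each sample gave 0 to 1 families, with 0 without D13 replicate 1. Over the log2 fold changes of the 5 families, 209 of 225 repeats kept direction and call, 14 turned direction and 2 lost the call. All 14 came from leaving out a single sample of families that were never called. Their log2 fold changes then ranged, for ETnERV-int, from -0.27 to 0.99 (D0 to D6), -0.74 to 0.52 (D6 to D13) and -0.32 to 0.82 (D0 to D13), for MMETn-int from -0.59 to 0.80, -1.26 to 0.14 and -1.10 to 0.19, for ETnERV2-int from -0.80 to 0.60 (D0 to D13), and for RLTRETN_Mm from -0.29 to 0.65 (D6 to D13). The number of the 4 members that differed from ETnERV3-int was 3 to 4 (D0 to D6), 0 to 1 (D6 to D13) and 0 to 3 (D0 to D13) when a sample was left out, and in the fit with added rows it was 4 in both later comparisons. With the replicate number as a block it was 2 from D6 to D13, where ETnERV-int was added (limma adjusted p = 0.017), and from D0 to D13 MMETn-int was lost (limma adjusted p = 0.093) and RLTRETN_Mm added (limma adjusted p = 0.023). Same-numbered samples correlated in their deviations with r from 0.10 to 0.54 over families and from -0.13 to 0.33 over genes. The highest value over families and the lowest over genes were both for D0 and D6. The labels do not say whether same-numbered samples are pairs, and the main fit did not take them as such. The block changed no call of a family's own log2 fold change. A sample left alone on its day was assumed to vary like the others. Causes were not tested. With 2 replicates per day, even fitted changes past 2-fold could go uncalled, as for ETnERV2-int.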
